A study of Homo sapiens with 8 samples.

Results

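Genes were sought whose mRNA level in every library of HCT116 cells with an shRNA against MAPKAPK2 lay on 1 side of every library with control shRNA, whichever of the 2 shRNAs was used and whether or not the controls had glucose. All 8 libraries of the study entered the comparison, 4 knockdown against 4 control. Of 16239 tested genes, those with at least 1 FPKM (fragments per kilobase of exon, scaled to the library size) in at least 2 libraries, 3402 showed no overlap between the 4 and the 4, which is 20.9% of the tested genes. Of these, 1901 were higher in all knockdown libraries (11.7%) and 1501 were lower (9.24%). HCT116 is an established human colorectal carcinoma line, and an shRNA is a short hairpin RNA that cells express to degrade a matching mRNA. The controls were 2 libraries from cells with control shRNA at 20 mM glucose and 2 from cells with the same shRNA held 24 h at 0 mM. The knockdowns were 2 libraries with MAPKAPK2 shRNA 1 and 2 with MAPKAPK2 shRNA 2, all at 20 mM glucose. The sources used here do not give how long the shRNAs had been expressed or whether each line was a clone or a pool, and no knockdown was done without glucose. The labels do not tell whether the libraries of a group are from separate cultures, so the p-values rest on the spread of these libraries alone, and that spread may be technical.

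MAPKAPK2 encodes MK2, a serine/threonine kinase that the p38 MAP kinases switch on when cells meet stress or inflammatory signals. Active MK2 phosphorylates the small heat shock protein HSP27 (gene HSPB1) and thereby acts on actin filaments, and it phosphorylates tristetraprolin (gene ZFP36), a protein that binds AU-rich elements of mRNAs and promotes their decay. It also acts on CDC25 phosphatases, which drive the cell cycle. Each shRNA can in addition act on other mRNAs that partly match it, which is why a change common to both shRNAs is looked at apart from a change seen with 1 of them. All control libraries carry the same control shRNA. What is particular to the control shRNA or its cells therefore cannot be told apart from a change common to both MAPKAPK2 shRNAs.

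Between 14252316 and 19975449 reads per library fell in genes, and in each library 13821 to 14611 genes reached 1 FPKM. The first principal component of the tested genes (30.9% of the variance) put the knockdowns at 23.4 to 29.7 and the controls at −29.6 to −22.6. The second (26.0%) separated the shRNAs, with shRNA 1 at −34.7 and −33.7, shRNA 2 at 36.9 and 31.2, and the 4 controls between −0.516 and 1.05. The third (11.4%) set off the second library of the 0 mM controls (32.4) and of shRNA 2 (18.4), while the remaining 6 lay at −16.7 to 0.964. The epithelial genes EPCAM (68.2 to 139 FPKM), CDH1 (9.62 to 27.5) and KRT19 (530.2 to 905) and the intestinal factor CDX2 (4.26 to 6.48) were present in all 8 libraries, while VIL1 and LGALS4, markers of differentiated enterocytes, reached at most 0.0614 and 0.256 FPKM. None of 15 blood and endothelial markers passed the filter, and their summed level was 0.642 to 1.10 FPKM in the controls and 0.484 to 1.35 in the knockdowns. Since RNA was taken from whole cultures, fewer cells of a kind and less RNA per cell cannot be told apart.

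MAPKAPK2 mRNA was lower in each knockdown library than in each control library. The gene (ENSG00000162889, chromosome 1 from 206684944 to 206734283, plus strand, GRCh38) was at 16.4 and 16.2 FPKM in the 20 mM controls, 17.9 and 18.9 in the 0 mM controls, 2.77 and 2.54 with shRNA 1 and 0.982 and 0.7996 with shRNA 2. The knockdown libraries held 219, 163, 78 and 54 reads of it. The group mean was 17.3 ± 1.26 FPKM in the controls and 1.77 ± 1.03 in the knockdowns (SD, n = 4 each), so that 10.2% of the control mean was left. On log2(FPKM + 1), the scale of all differences below, the change was −2.80 (SE 0.07, limma adjusted p = 8.9e-06), from a limma model with a mean for each of the 4 groups and p-values adjusted over all tested genes by Benjamini-Hochberg. The lowest control and the highest knockdown library were 2.19 apart, a distance called the gap here, and the difference shRNA 2 minus shRNA 1 was −0.95 (limma adjusted p = 0.00124). The pseudocount of 1 understates changes of genes with a low FPKM. The 5 protein-coding genes whose profile over the 8 libraries was most like that of MAPKAPK2, by Pearson r on log2(FPKM + 1) among genes with a mean of at least 5 FPKM, were VPS52 (r = 0.994), GNAI1 (0.994), MYO19 (0.992), ATF3 (0.991) and ARL14EPL (0.987). These values over 8 libraries from 4 groups are a description, and each of the 5 was lower in the order control, shRNA 1, shRNA 2.

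Of the genes with no overlap, 2918 also passed the limma test at an adjusted p under 0.05 (18.0% of the tested genes), 1676 higher (10.3%) and 1242 lower (7.65%); these are called separated genes below. The limma test alone called 4463 genes (27.5%), 2403 higher (14.8%) and 2060 lower (12.7%), of which 727 and 818 overlapped between the groups. Another 225 higher and 259 lower genes showed no overlap without passing. The median change was 0.56 for the higher and −0.54 for the lower genes, against −0.002 over all tested genes, and 684 and 535 changed by less than 0.5. A change of at least 1 was reached by 214 higher and 129 lower genes. In 69 higher and 59 lower genes even the nearest libraries of the 2 sides differed at least 2-fold in FPKM. When the difference between the shRNAs and between the glucose conditions was counted as spread, in a model with 2 groups and 6 residual degrees of freedom, 1098 higher and 811 lower genes were separated and past the test. All of those 1909 were among the 2918.

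**Figure D1:**
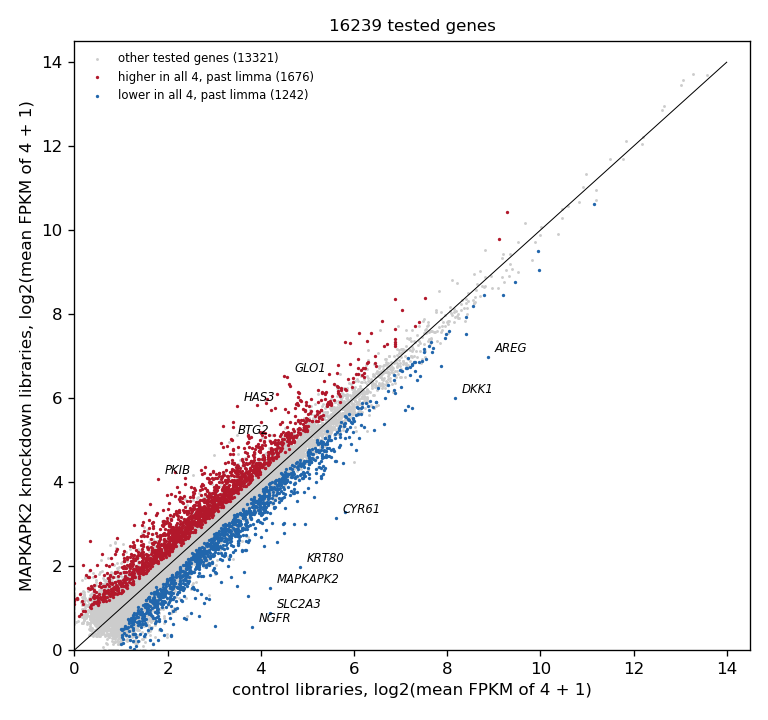
Each point is 1 of 16239 tested genes, with the mean of the 4 control libraries on the x axis and the mean of the 4 knockdown libraries on the y axis, both as log2(mean FPKM + 1); red marks the 1676 and blue the 1242 separated genes. MAPKAPK2, NGFR, SLC2A3 and KRT80 lie far below the diagonal, and most coloured points lie close to the grey ones.

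At the limit of the choice, by protein-coding genes with a mean of at least 5 FPKM, PRMT3 was just inside with 5.79, 5.58, 4.97 and 5.65 FPKM in the controls and 7.12, 7.63, 5.79 and 6.52 in the knockdowns. Its call (0.25, SE 0.07, limma adjusted p = 0.0408) was lost with 2 groups (adjusted p = 0.144 by limma) and in 7 of 8 fits without 1 library. ASXL1, 8.54 to 9.41 FPKM in the controls and 8.38 to 8.54 in the knockdowns, had no overlap either but did not pass the test (−0.06, adjusted p = 0.471 by limma). Just outside were EBP, 16.1 to 22.4 and 10.7 to 16.2 FPKM, and FAM220A, 6.17 to 9.04 and 9.04 to 11.2. The genes described next had the widest gaps, so their changes describe how they were chosen.

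Among protein-coding genes lower in the knockdowns, the 15 with the widest gap held the neurotrophin receptor NGFR, the glucose transporter SLC2A3, 4 genes of keratins or their associated proteins, the kinase MAPKAPK2 itself and 3 genes of the YAP/TEAD programme. In the values that follow, the 4 control libraries come in the order 20 mM, 20 mM, 0 mM and 0 mM, and the 4 knockdown libraries in the order shRNA 1, shRNA 1, shRNA 2 and shRNA 2. NGFR, the p75 receptor that binds neurotrophins and their precursors (chromosome 17 from 49495293 to 49515017), was at 11.4, 9.49, 15.6 and 15.5 FPKM in the controls and 0.525, 0.52002, 0.331 and 0.524 in the knockdowns. The lowest control was far above the highest knockdown, and both shRNAs reached nearly the same low level (change −3.22, SE 0.09, limma adjusted p = 1.4e-05, gap 2.78). Of its exon bases, 27.1% overlap AC015656.1 on the opposite strand. SLC2A3 (GLUT3, chromosome 12 from 7919230 to 7936275), a glucose transporter of high affinity, was at 11.5, 13.4, 21.1 and 23.8 FPKM in the controls and 0.155, 0.191, 1.41 and 1.58 in the knockdowns. It was higher in both 0 mM than in both 20 mM controls, and shRNA 1 left less than shRNA 2, yet even the highest knockdown library lay well under the lowest control (change −3.37, SE 0.08, limma adjusted p = 8.9e-06). SLC2A14 is a near copy of SLC2A3, and how reads were split between them is uncertain.

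The keratins KRT80, KRT7 and KRT81, filament proteins of epithelia, lie near each other on chromosome 12. KRT80 was at 20.6, 19.7, 35.3 and 35.5 FPKM in the controls and 2.47, 2.51, 3.46 and 3.299 in the knockdowns (change −2.83, SE 0.06, limma adjusted p = 7.5e-06). KRT7, typical of glandular epithelium, was at 40.4, 41.2, 70.8 and 67.1 FPKM in the controls and 13.5, 10.9, 6.01 and 4.902 in the knockdowns (change −2.56, SE 0.09, limma adjusted p = 3.9e-05), and here shRNA 2 gave the lower values. KRT81, a keratin of hair, was at 8.65, 10.3, 15.3 and 14.4 FPKM in the controls and 0.303, 0.881, 2.33 and 2.19 in the knockdowns (change −2.51, SE 0.13, limma adjusted p = 9.7e-05), with shRNA 1 lower; it has close relatives among the hair keratins, so its counts are less certain. All 3 were higher in both 0 mM controls than in both 20 mM controls. KRTAP3-1, a keratin-associated protein of hair, was at 4.87, 8.06, 5.47 and 9.84 FPKM in the controls and 0.879, 0.812, 0.146 and 0.0857 in the knockdowns. The shRNA 2 libraries were the lowest (change −2.45, SE 0.20, limma adjusted p = 4.5e-04).

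Other genes of this group had flatter controls. DKK1, a secreted inhibitor of Wnt signalling and the most abundant of the 15, was at 271, 283, 310.2 and 274 FPKM in the controls and 40.8, 39.2, 86.6 and 87.04 in the knockdowns. Its 4 controls lay close together, while shRNA 1 left less than shRNA 2 (change −2.25, SE 0.07, limma adjusted p = 2.4e-05). NR4A1, a nuclear receptor of the immediate-early class, was at 11.2, 9.66, 13.5 and 11.6 FPKM in the controls and 2.21, 2.05, 3.18 and 3.16 in the knockdowns (change −1.78, SE 0.08, limma adjusted p = 6.4e-05). FSD1, which encodes a protein with fibronectin type III and SPRY domains, was at 10.1, 10.5, 11.6 and 9.07 FPKM in the controls and 2.08, 2.06, 1.83 and 1.48 in the knockdowns (change −1.98, SE 0.09, limma adjusted p = 7.8e-05). RBM24, an RNA-binding protein, was at 6.61, 6.22, 5.08 and 5.46 FPKM in the controls and 1.11, 1.18, 1.13 and 1.32 in the knockdowns (change −1.64, SE 0.08, limma adjusted p = 7.6e-05), and KATNAL1, a microtubule-severing katanin subunit, at 10.2, 9.05, 8.04 and 9.46 FPKM in the controls and 2.22, 2.43, 2.07 and 2.63 in the knockdowns (change −1.61, SE 0.09, limma adjusted p = 1.6e-04). In RBM24 and KATNAL1 the 4 knockdown libraries could not be ordered by shRNA.

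**Figure D2:**
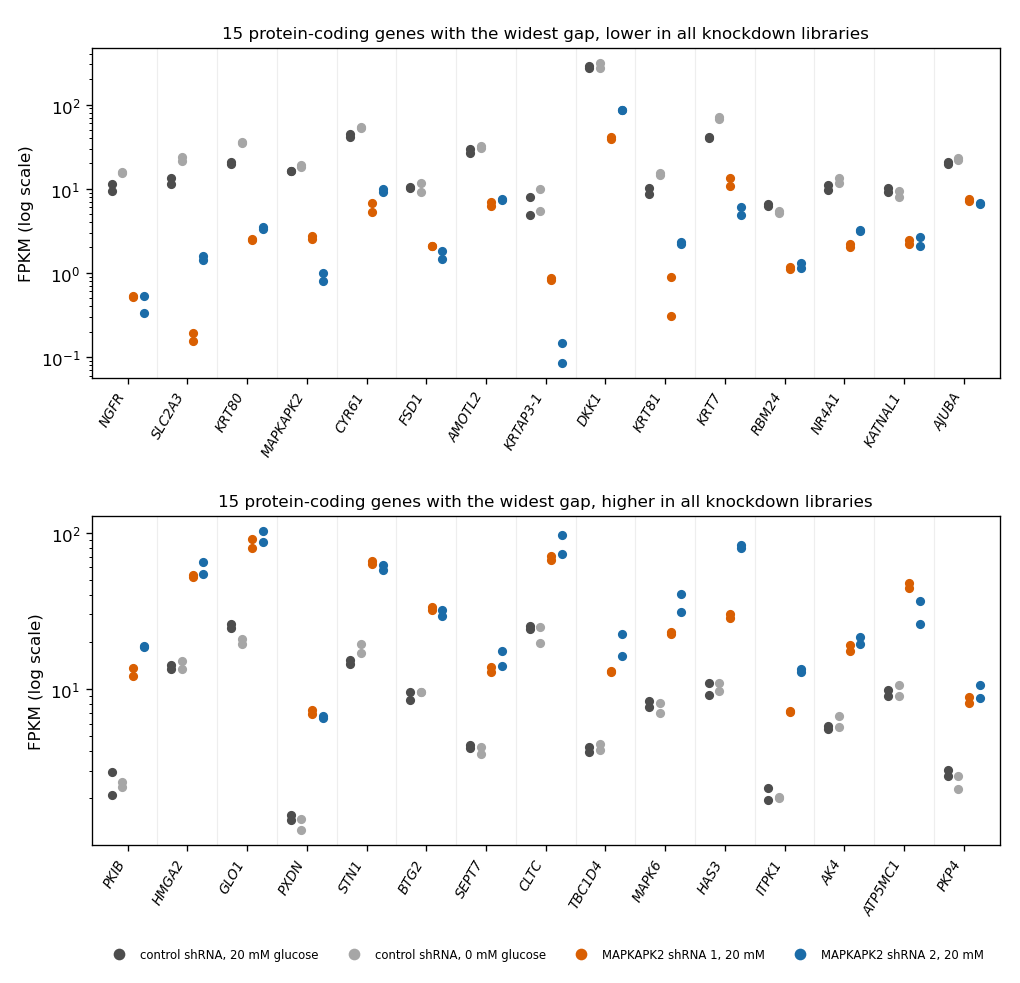
Levels in FPKM on a log axis in each of the 8 libraries for the 15 lower (top) and 15 higher (bottom) protein-coding genes with the widest gap; each dot is 1 library, dark and light grey for controls at 20 and 0 mM glucose, orange and blue for shRNA 1 and 2. No coloured dot of a gene reaches the grey dots, while orange and blue differ in genes such as SLC2A3, KRT7 and HAS3 and not in NGFR or STN1.

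Among the 15 higher genes were an inhibitor of protein kinase A, the chromatin factor HMGA2, the detoxifying enzyme glyoxalase 1 and a subunit of the CST complex at telomeres. PKIB, which encodes that kinase inhibitor (chromosome 6 from 122471917 to 122726373), was at 2.09, 2.93, 2.38 and 2.55 FPKM in the controls and 13.6, 12.2, 18.7 and 18.9 in the knockdowns. The controls with and without glucose overlapped, and shRNA 2 gave more than shRNA 1 (change 2.25, SE 0.09, limma adjusted p = 5.2e-05). HMGA2, an architectural protein that binds AT-rich DNA and is best known from embryonic cells and tumours (chromosome 12 from 65824131 to 65966295), was at 14.2, 13.4, 13.4 and 15.1 FPKM in the controls and 51.9, 53.4, 54.7 and 64.5 in the knockdowns. All 4 knockdown libraries lay far above the controls (change 1.92, SE 0.08, limma adjusted p = 5.2e-05). GLO1, which removes the glycolytic by-product methylglyoxal, was at 24.7, 26.2, 20.7 and 19.5 FPKM in the controls and 91.1, 79.6, 87.4 and 103 in the knockdowns (change 1.94, SE 0.08, limma adjusted p = 5.2e-05).

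STN1, the CST subunit, was at 14.4, 15.4, 17.1 and 19.5 FPKM in the controls and 66.3, 62.7, 61.7 and 57.6 in the knockdowns (change 1.85, SE 0.07, limma adjusted p = 4.4e-05). PXDN, a peroxidase that cross-links collagen IV, was at 1.57, 1.45, 1.25 and 1.47 FPKM in the controls and 6.92, 7.36, 6.57 and 6.69 in the knockdowns (change 1.70, SE 0.07, limma adjusted p = 5.3e-05). BTG2, an antiproliferative gene and a p53 target, was at 8.57, 9.62, 9.57 and 9.62 FPKM in the controls and 33.5, 31.95, 32.2 and 29.2 in the knockdowns (change 1.66, SE 0.07, limma adjusted p = 5.2e-05). These 3 genes had slightly lower means with shRNA 2 than with shRNA 1, by differences that did not pass the test. HAS3, a synthase of hyaluronan, showed the opposite, with 10.96, 9.12, 9.66 and 10.9 FPKM in the controls and 28.4, 30.1, 83.9 and 79.2 in the knockdowns. Both shRNA 1 libraries lay above all controls, and both shRNA 2 libraries far above these (change 2.17, SE 0.08, limma adjusted p = 4.1e-05; shRNA 2 minus shRNA 1 1.45, limma adjusted p = 5.9e-04).

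CLTC, the clathrin heavy chain of coated vesicles, was at 19.7 to 25.3 FPKM in the controls and 67.2 to 97.2 in the knockdowns (change 1.66). The atypical MAP kinase ERK3, gene MAPK6, was at 7.02 to 8.33 and 22.6 to 40.7 FPKM (1.75), and TBC1D4 (AS160), a Rab GTPase-activating protein that controls GLUT4 traffic, at 3.98 to 4.45 and 12.9 to 22.6 (1.69). For the inositol phosphate kinase ITPK1 the ranges were 1.95 to 2.33 and 7.16 to 13.5 FPKM (1.81), for the mitochondrial adenylate kinase AK4 5.58 to 6.75 and 17.5 to 21.6 (1.55), and for PKP4, an armadillo protein of cell junctions, 2.28 to 3.02 and 8.19 to 10.6 (1.44). The septin SEPT7 (3.82 to 4.36 and 12.9 to 17.5, 1.58) and ATP5MC1, subunit c of ATP synthase (8.99 to 10.5 and 26.1 to 47.4, 1.87), complete the 15, and the largest limma adjusted p among these 8 genes was that of CLTC, 2.8e-04. SEPT7, ATP5MC1, MAPK6 and AK4 have 9, 7, 6 and 6 annotated copies named as their pseudogenes, which could share reads with them.

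The shRNAs differed from each other in many genes. The choice asked both shRNAs to lie on the same side of the controls and so favours genes in which they lie together; the values that follow are a description. Over all tested genes limma called 3602 (22.2%) between shRNA 2 and shRNA 1. Among the separated genes it called 402 of the 1676 higher (24.0%) and 246 of the 1242 lower ones (19.8%). A difference between the shRNA means of less than 0.2 was found in 44.6% of the higher, 47.3% of the lower and 34.5% of all tested genes. Both shRNA 2 libraries lay farther from the controls than both shRNA 1 libraries in 686 higher genes, and the reverse held in 403. For the lower genes the counts were 369 and 379. No such share was worked out over all tested genes, so these counts are not set against genes in general. Of the 15 widest gaps on each side, those with a difference under 0.2 included NGFR, AMOTL2, RBM24, KATNAL1 and AJUBA among the lower and HMGA2, GLO1, PXDN, STN1 and BTG2 among the higher genes.

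**Figure D3:**
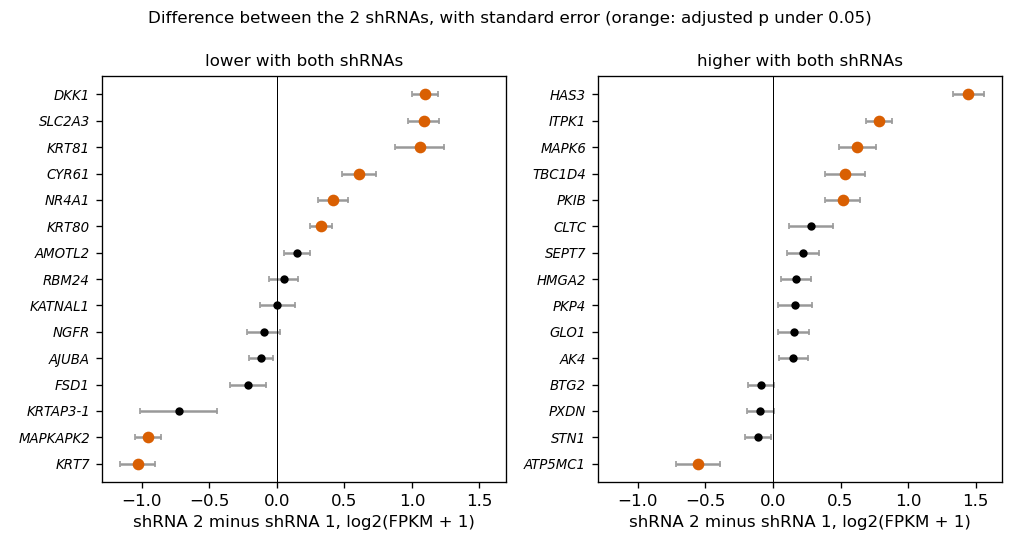
Difference between the shRNA groups, shRNA 2 minus shRNA 1 on log2(FPKM + 1), for the 15 lower (left) and 15 higher (right) genes with the widest gap; bars are standard errors and orange marks a limma adjusted p under 0.05 over all tested genes. HAS3 differs by 1.45 and DKK1 by 1.10 in favour of shRNA 2, KRT7 by −1.03, and NGFR, KATNAL1, RBM24, STN1 and PXDN lie within 0.2 of 0.

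Glucose made less difference within the controls. Between 0 and 20 mM limma called 0 genes (0.0%), with 1421 at an unadjusted p under 0.05 (8.75%), and limma voom, run on whole reads recovered from the deposited values, called 28 (0.172%). Among the separated genes, both 0 mM controls lay above both 20 mM controls in 257 of 1676 higher and 305 of 1242 lower ones. They lay below in 497 of 1676 higher and 308 of 1242 lower ones. Over all tested genes they lay above in 19.1% and below in 22.2%. The 5 largest glucose differences among the named genes (0 minus 20 mM) were those of MT1E (1.00), SLC2A3 (0.81), KRT80 (0.78), PCK2 (0.75) and KRT7 (0.74). With limma on log2(FPKM + 1) their adjusted p was 0.217, 0.202, 0.152, 0.219 and 0.238, so none passed. With limma voom all 5 passed, at an adjusted p of 0.0143, 0.0131, 0.0131, 0.0401 and 0.0231. The glucose contrast and the knockdown contrast use the same controls.

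YAP and TAZ (gene WWTR1) are transcriptional coactivators that bind DNA through TEAD factors. They are held back by LATS kinases and by angiomotins, several of which are themselves YAP targets, and they respond to actin tension as SRF does. Of 24 listed YAP, TEAD and SRF genes, 22 passed the filter, 9 fell and 3 rose with separation, and the median change of the 22 was −0.36. The list shares, 37.5% lower and 12.5% higher, are over all listed genes, those under the filter included, here and below. The background shares, 7.65% lower and 10.3% higher, are over tested genes. Besides CYR61, AMOTL2, THBS1 and AJUBA, the members named here were chosen after their values were seen. In every list the members named by rule, at most 4, had the widest gaps among members with no overlap. Their changes and p-values therefore describe that choice and not the list as a whole.

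CYR61 (CCN1), a secreted matricellular protein and a classic YAP target, was at 44.6, 41.3, 54.5 and 52.2 FPKM in the controls and 5.21, 6.79, 10.04 and 9.21 in the knockdowns (chromosome 1 from 85580761 to 85583962). The shRNA 1 libraries were lowest, and no library overlapped (change −2.51, SE 0.09, limma adjusted p = 3.7e-05). CTGF (CCN2), its relative, was at 4.17, 5.596, 5.5998 and 6.07 FPKM in the controls and 0.477, 0.531, 0.745 and 1.27 in the knockdowns (change −1.87, SE 0.13, limma adjusted p = 2.5e-04). AMOTL2, an angiomotin, was at 29.8, 26.4, 32.1 and 30.8 FPKM in the controls and 6.29, 6.896, 7.33 and 7.52 in the knockdowns (change −1.94, SE 0.07, limma adjusted p = 3.7e-05), and AJUBA, an inhibitor of LATS kinases at junctions, at 20.9, 19.5, 23.1 and 21.8 FPKM in the controls and 7.59, 7.12, 6.57 and 6.84 in the knockdowns (change −1.47, SE 0.06, limma adjusted p = 5.2e-05). Between the shRNAs AMOTL2 differed by 0.15 and AJUBA by −0.12 (shRNA 2 minus shRNA 1, limma adjusted p = 0.302 and 0.384). The matrix protein gene THBS1 (thrombospondin 1) was at 4.34, 3.72, 3.995 and 4.43 FPKM in the controls and 0.754, 0.643, 0.502 and 0.916 in the knockdowns (change −1.59, SE 0.11, limma adjusted p = 3.0e-04).

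YAP1 itself was at 48.6, 44.8, 46.1 and 49.04 FPKM in the controls and 22.1, 27.3, 16.6 and 20.996 in the knockdowns, with every knockdown library under every control (change −1.10, SE 0.10, limma adjusted p = 7.0e-04). Its partner TEAD4 was at 19.4, 15.8, 16.1 and 16.4 FPKM in the controls and 9.87, 9.73, 13.3 and 13.2 in the knockdowns (change −0.53, SE 0.08, limma adjusted p = 0.00336), the kinase LATS2 at 9.95 to 11.96 FPKM in the controls and 3.83 to 9.21 in the knockdowns (−0.78), and ARHGEF17 at 4.59 to 6.302 and 2.12 to 2.803 (−0.93). WWTR1, which encodes TAZ, went the other way, with 4.74, 4.64, 4.303 and 4.69 FPKM in the controls and 8.65, 9.65, 8.45 and 10.99 in the knockdowns (change 0.89, SE 0.09, limma adjusted p = 9.9e-04). FJX1 (1.13) and the adhesion protein vinculin, VCL (0.42), also rose. F3 (1.80), AXL (0.92) and SRF (0.99) were higher with shRNA 2 than with shRNA 1 (difference between the shRNA groups, limma adjusted p = 3.7e-04, 0.00169 and 0.00338), and AMOTL1 and TPM1 showed no overlap without passing.

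**Figure D4:**
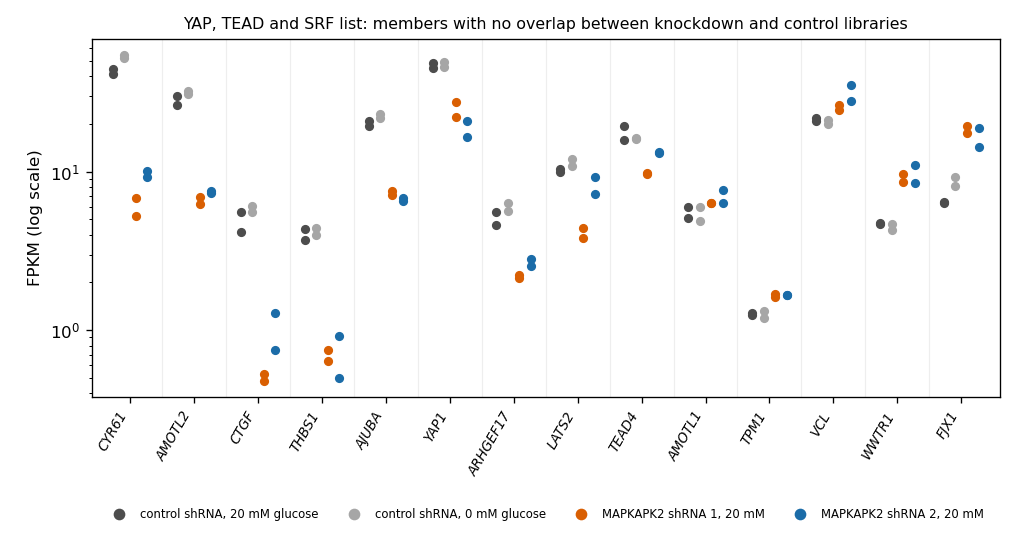
FPKM on a log axis in each library for the 14 genes of the YAP, TEAD and SRF list with no overlap between knockdown and control libraries, from the largest fall on the left to the largest rise on the right; colours as in the plot of the widest gaps. CYR61, AMOTL2, CTGF, THBS1, AJUBA and YAP1 lie low with both shRNAs, while WWTR1 and FJX1 lie high.

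Promoter sequence of members of this list that fell is shown because TEAD factors recognise a short core, GGAATG. RefSeq promoter windows, from 250 bases before to 50 after the start in GRCh38.p14, were at hand for 6 of the 9 that fell. The core, searched on both strands, was found in 4 of the 6. CTGF held 3 cores, whose first bases lie 169, 104 and 95 bases before the start. THBS1 held 1 core 46 bases before the start and YAP1 1 core 162 bases before it. LATS2 held 1 that begins at base 10 after the start, and no core was found in the windows of AMOTL2 and AJUBA. The 250 bases before the start follow for CTGF (chr6:131951373-131951622, minus strand), THBS1 (chr15:39580829-39581078, plus strand) and YAP1 (chr11:102110197-102110446, plus strand), 5′ to 3′ on the gene's strand, with the cores in capitals.
CTGF: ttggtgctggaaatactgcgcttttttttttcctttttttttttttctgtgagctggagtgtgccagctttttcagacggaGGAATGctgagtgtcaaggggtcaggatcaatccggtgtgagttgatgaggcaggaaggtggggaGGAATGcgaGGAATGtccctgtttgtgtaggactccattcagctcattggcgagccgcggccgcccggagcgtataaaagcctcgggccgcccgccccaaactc
THBS1: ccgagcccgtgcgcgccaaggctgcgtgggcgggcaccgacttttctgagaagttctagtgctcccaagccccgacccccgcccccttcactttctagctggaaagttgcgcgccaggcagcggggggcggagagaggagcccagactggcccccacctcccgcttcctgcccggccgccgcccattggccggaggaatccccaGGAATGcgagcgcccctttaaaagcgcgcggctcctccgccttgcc
YAP1: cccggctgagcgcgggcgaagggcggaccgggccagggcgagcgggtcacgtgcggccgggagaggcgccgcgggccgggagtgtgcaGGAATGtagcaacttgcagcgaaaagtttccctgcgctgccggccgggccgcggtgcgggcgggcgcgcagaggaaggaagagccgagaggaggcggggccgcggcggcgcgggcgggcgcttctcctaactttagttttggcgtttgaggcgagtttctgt
The close pair in CTGF is separated by 3 bases. Over all separated genes with a window, the core was found in 11.5% of 863 lower and 9.98% of 1253 higher genes, against 10.6% of 9443 tested genes. The CCAAT box (CCAAT) was found in 40.9%, 34.6% and 36.6% of the lower, higher and tested genes, the E-box (CACGTG) in 11.4%, 8.22% and 10.4%, the AP-1 core (TGACTCA) in 2.78%, 3.51% and 3.11%, and an E2F core (GGCGGGA) in 29.1%, 26.3% and 26.0%. These shares describe letters in a window and no binding.

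Genes of DNA replication are switched on by E2F factors at the G1/S transition. All 44 listed genes passed the filter, 22 were separated and lower, against 7.65% of all tested genes, and 0 were separated and higher. The median change was −0.38, and 40 of 44 changes were below 0. CDC6, which loads the replicative helicase, was at 27.8, 29.2, 23.6 and 25.9 FPKM in the controls and 9.14, 10.3, 10.7 and 12.8 in the knockdowns (change −1.24, SE 0.08, limma adjusted p = 2.3e-04). E2F2, one of the activators, was at 9.17, 8.64, 6.39 and 6.73 FPKM in the controls and 4.05, 3.64, 2.796 and 3.38 in the knockdowns (change −0.96, SE 0.08, limma adjusted p = 4.1e-04). PRIM1, the catalytic subunit of primase, fell by 0.78 and UHRF1, which recruits the maintenance methyltransferase, fell by 1.16; over 20% of the exon bases of PRIM1 overlap another gene. UHRF1 lay lower with shRNA 1 (16.7 and 15.1 FPKM) than with shRNA 2 (28.4 and 26.7), against 41.5 to 56.1 in the controls. With the 20 mM controls alone, 33 members were separated and lower, where 1145 of all 16239 tested genes were. With the 0 mM controls alone, 19 were lower and 2 higher, where 1212 and 1672 of all tested genes were. With 2 groups and 6 residual degrees of freedom 16 were lower, where 811 of all tested genes were.

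Of 35 mitosis and G2/M genes, 34 passed the filter, 2 fell (5.71%, against 7.65% of all tested genes) and 1 rose (2.86%, against 10.3%) with separation, and the median was −0.03. The microtubule depolymerase KIF2C was at 28.1 to 39.4 FPKM in the controls and 19.8 to 25.6 in the knockdowns (−0.52, SE 0.06, limma adjusted p = 0.00192). The chromosomal passenger INCENP was at 18.9 to 24.9 FPKM in the controls and 14.7 to 18.9 in the knockdowns (−0.31, SE 0.07, limma adjusted p = 0.0171), a call lost with 2 groups (adjusted p = 0.133 by limma) and in 3 of 8 fits without 1 library. The phosphatase CDC25B, which activates CDK1, was at 54.6 to 71.8 and 76.2 to 85.7 (0.41, SE 0.07, limma adjusted p = 0.00547). Limma called 23 of the 34 between the shRNAs, where it called 22.2% of all tested genes.

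Among 20 p38 pathway kinases, 19 passed the filter, 2 rose and 2 fell with separation, close to the shares of all tested genes. MAPKAPK3, which encodes MK3, the kinase most like MK2, was at 24.000, 23.9, 23.4 and 21.4 FPKM in the controls and 30.1, 29.04, 35.9 and 31.9 in the knockdowns (change 0.43, SE 0.07, limma adjusted p = 0.00427). MAP3K5 (ASK1), a kinase upstream of p38 in oxidative stress, was at 2.85, 3.01, 1.92 and 3.399 FPKM in the controls and 7.71, 7.61, 6.37 and 8.02 in the knockdowns (change 1.16, SE 0.14, limma adjusted p = 0.001696). RPS6KA5 (MSK1), another kinase that p38 activates, was at 2.25, 2.18, 2.23 and 2.58 FPKM in the controls and 0.818, 0.905, 0.472 and 0.628 in the knockdowns (change −0.96, SE 0.11, limma adjusted p = 0.001299). MAP3K6 was at 8.19 to 9.49 FPKM in the controls and 5.904 to 8.03 in the knockdowns (−0.33, SE 0.09, limma adjusted p = 0.0415). This call was lost with 2 groups (adjusted p = 0.0772 by limma) and in 7 of 8 fits without 1 library. MAPK14, which encodes p38 alpha, was at 8.84, 8.44, 7.09 and 8.26 FPKM in the controls and 7.18, 6.99, 11.8 and 12.2 in the knockdowns. The shRNA 1 libraries lay with the lowest control and the shRNA 2 libraries above all controls (0.17, SE 0.07, limma adjusted p = 0.118).

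Of 26 listed MK2 substrates 25 passed the filter, 2 rose and 2 fell with separation, 7.69% each way and near or below the 10.3% and 7.65% of all tested genes. CDC25A, the phosphatase that acts at G1/S, was at 18.9, 19.6, 12.98 and 13.5 FPKM in the controls and 6.72, 6.703, 5.82 and 5.96 in the knockdowns (change −1.22, SE 0.06, limma adjusted p = 7.7e-05). ETV1, an ETS factor, was at 4.22 to 4.92 FPKM in the controls and 2.35 to 3.496 in the knockdowns (−0.45, SE 0.10, limma adjusted p = 0.0199), and this call was lost in 5 of 8 fits without 1 library. LIMK1, which phosphorylates cofilin, was at 12.5 to 14.9 and 16.5 to 19.7 FPKM (0.39, SE 0.07, limma adjusted p = 0.009595), and CDC25B rose as given above. HSPB1 mRNA was at 289, 295, 249 and 226 FPKM in the controls and 239, 185, 368 and 289.9 in the knockdowns, and its groups overlapped (change −0.01, SE 0.12, limma adjusted p = 0.979). ZFP36 was at 35.4, 35.02, 37.2 and 37.8 FPKM in the controls and 24.5, 25.2, 36.1 and 32.5 in the knockdowns; the highest knockdown library lay inside the controls, and the change was −0.31 (SE 0.06, limma adjusted p = 0.0111), lost with 2 groups (adjusted p = 0.168 by limma) and without the first 20 mM control (0.0517). KRT20 was at 0.983 to 1.59 and 0.337 to 0.801 FPKM with no overlap and did not pass the test (−0.51, SE 0.16, limma adjusted p = 0.0598).

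In cholesterol synthesis and uptake, all 26 genes passed the filter. With separation 7 fell (26.9%, against 7.65% of all tested genes) and 0 rose (against 10.3%), and the median was −0.46. SREBF2, the transcription factor SREBP2 that switches these genes on, was at 36.6, 34.5, 41.5 and 41.3 FPKM in the controls and 16.6, 15.4, 16.7 and 15.8 in the knockdowns. The 4 knockdown libraries lay close together and under every control (change −1.20, SE 0.06, limma adjusted p = 9.7e-05). HMGCS1, the synthase before HMG-CoA reductase, was at 28.05, 27.2, 33.04 and 37.6 FPKM in the controls and 12.7, 14.5, 13.05 and 14.1 in the knockdowns (change −1.14, SE 0.08, limma adjusted p = 2.4e-04), and squalene epoxidase, SQLE, at 24.9, 23.5, 23.5 and 28.1 FPKM in the controls and 11.2, 10.4, 13.5 and 14.6 in the knockdowns (change −0.96, SE 0.08, limma adjusted p = 4.3e-04). ACAT2, which makes acetoacetyl-CoA, was at 7.43 to 8.59 and 1.72 to 5.77 FPKM (−0.95, SE 0.11, limma adjusted p = 0.00134), lost with 2 groups (adjusted p = 0.0563 by limma), and over 20% of its exon bases overlap another gene. Between the shRNAs limma called 22.2% of all tested genes and 15 of the 26. INSIG1, named after its values were seen, was among these, at 23.1, 21.8, 24.7 and 27.7 FPKM in the controls and 8.54, 8.22, 32.8 and 34.9 in the knockdowns. With 2 groups, 4 members were separated, past the test and lower, where 811 of all 16239 tested genes were.

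Of 13 glucose transporters 7 passed the filter, and SLC2A3 and SLC2A1 fell with separation (15.4%, against 7.65% of all tested genes). SLC2A1 (GLUT1), the most abundant of the 13 by FPKM, was at 128, 124, 156 and 158 FPKM in the controls and 61.3, 55.9, 53.1 and 49.8 in the knockdowns. Both 0 mM controls were highest and no library overlapped (change −1.34, SE 0.06, limma adjusted p = 7.8e-05). SLC2A11 was at 1.71 to 2.68 and 1.31 to 1.68 FPKM without passing (−0.30, SE 0.10, limma adjusted p = 0.0582). The summed level of the 13 genes was 152 to 197 FPKM in the controls and 64.9 to 78.9 in the knockdowns.

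Of 23 glycolysis and lactate genes 1 fell and 1 rose with separation (4.35% each way, against 7.65% and 10.3% of all tested genes). PFKFB3, which makes the activator of phosphofructokinase, was at 14.8, 13.5, 13.3 and 12.6 FPKM in the controls and 8.87, 9.52, 9.16 and 8.17 in the knockdowns (change −0.55, SE 0.07, limma adjusted p = 0.00213). GAPDH was at 527 to 575 FPKM in the controls and 579 to 1174 in the knockdowns (0.63, SE 0.10, limma adjusted p = 0.00459), a call lost with 2 groups (adjusted p = 0.0941 by limma), and 62 annotated copies could share its reads. Limma called 9 members higher and 2 lower in all, and 18 of the 23 between the shRNAs. Over all tested genes these limma shares were 14.8%, 12.7% and 22.2%.

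Of 23 hypoxia and HIF genes 21 passed the filter, 8 rose with separation (34.8% against 10.3% of all tested genes), 0 fell, and the median was 0.67. EPAS1, which encodes HIF-2 alpha, was at 2.36, 2.46, 2.28 and 2.62 FPKM in the controls and 5.78, 6.16, 10.6 and 11.9 in the knockdowns (change 1.43, SE 0.07, limma adjusted p = 1.1e-04). INSIG2, an anchor that retains SREBP in the endoplasmic reticulum, was at 3.07, 3.51, 4.601 and 3.89 FPKM in the controls and 7.0997, 7.897, 9.69 and 10.2 in the knockdowns (change 1.03, SE 0.08, limma adjusted p = 3.8e-04). AK4, listed here too, was at 5.58, 5.78, 5.74 and 6.75 FPKM in the controls and 17.5, 19.2, 19.5 and 21.6 in the knockdowns. PLOD2, a collagen lysyl hydroxylase, was at 2.29, 1.98, 1.79 and 2.001 FPKM in the controls and 3.04, 3.24, 11.5 and 12.5 in the knockdowns (change 1.28, SE 0.08, limma adjusted p = 1.6e-04). With shRNA 1 it lay just above the controls, with shRNA 2 far above, and the call was lost with 2 groups (adjusted p = 0.0680 by limma). Of the 21 genes, 15 differed between the shRNAs by limma, against 22.2% of all tested genes. With 2 groups 5 of the list were separated, past the test and higher, where 1098 of all 16239 tested genes were.

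Laminins and integrins build and bind the basement membrane. Of 22 listed adhesion genes 20 passed the filter. With separation 7 rose (31.8%, against 10.3% of all tested genes) and 0 fell (against 7.65%), and the median was 0.48. ITGB4, the beta chain of the hemidesmosome integrin, was at 50.9, 46.5, 69.1 and 71.5 FPKM in the controls and 136, 129, 201 and 166 in the knockdowns (change 1.40, SE 0.08, limma adjusted p = 1.6e-04). ITGA2, a collagen receptor chain, was at 15.8, 17.1, 15.1 and 17.7 FPKM in the controls and 22.3, 27.2, 76.96 and 106 in the knockdowns (change 1.48, SE 0.12, limma adjusted p = 4.6e-04), lost with 2 groups (adjusted p = 0.0630 by limma). The laminin chain LAMC1 was at 17.1, 15.97, 16.6 and 20.8 FPKM in the controls and 27.5, 29.05, 66.8 and 84.2 in the knockdowns (change 1.35, SE 0.10, limma adjusted p = 3.5e-04), and the fibronectin receptor chain ITGA5 at 10.4 to 11.9 and 14.6 to 33.02 FPKM (0.88). In ITGA2, LAMC1 and ITGA5 the shRNA 2 libraries were the higher by 1.83, 1.38 and 0.93. CD44, the hyaluronan receptor, named after its values were seen, was higher with shRNA 1 (91.9 and 94.2 FPKM) and barely above the controls (37.2 to 43.6) with shRNA 2 (43.9 and 49.8). With 2 groups, 3 members were separated, past the test and higher, where 1098 of all 16239 tested genes were.

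Of 33 epithelial junction and intestinal genes 22 passed the filter. With separation 5 rose (15.2%, against 10.3% of all tested genes) and 0 fell. EHF, an ETS factor of epithelia, was at 3.31, 3.07, 3.32 and 4.21 FPKM in the controls and 10.7, 14.03, 20.8 and 25.7 in the knockdowns (change 2.01, SE 0.12, limma adjusted p = 1.6e-04). JUP, plakoglobin of desmosomes and adherens junctions, was at 64.96, 64.9, 67.5 and 71.3 FPKM in the controls and 109, 100.01, 109.6 and 98.1 in the knockdowns (change 0.63, SE 0.07, limma adjusted p = 0.00122). PKP2, a desmosomal plakophilin (0.41), and the splicing regulator ESRP1 (0.59) rose as well; the PKP2 call was lost without the first 20 mM control or the second shRNA 1 library (adjusted p = 0.0546 and 0.0530 by limma). EPCAM and CDH1 lay higher with shRNA 1 and lower with shRNA 2 than all controls, so both overlapped.

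Of 20 mesenchymal markers 8 passed, 3 rose (15%) and 1 fell (5%) with separation, against 10.3% and 7.65% of all tested genes. COL6A1 was at 17.4 to 20.03 FPKM in the controls and 24.6 to 40.6 in the knockdowns (0.80, SE 0.09, limma adjusted p = 0.00139), and COL1A1 at 5.63 to 6.72 and 3.84 to 4.58 (−0.49, SE 0.07, limma adjusted p = 0.00342). ZEB1, a repressor of epithelial genes, was at 0.249 to 0.507 and 0.741 to 2.97 (0.83, SE 0.17, limma adjusted p = 0.0121), a low level and a call lost with 2 groups (adjusted p = 0.0844 by limma). HMGA2 is the third that rose. The summed level of the 20 was 126 to 165 FPKM in the controls and 181 to 422 in the knockdowns, with 1 gene at 0 reads in all libraries, and its part in other changes was not tested. Of 20 neural and neuroendocrine genes 5 passed the filter. NGFR and the synaptotagmin SYT1 (−0.63) fell (10% of the list), and TUBB3 (0.48) rose (5%). Over 20% of the exon bases of TUBB3 overlap another gene. Of 19 keratins 13 passed, and only KRT80, KRT7 and KRT81 were separated, all lower (15.8%, against 7.65% of all tested genes).

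AREG and EGFR were the separated genes among 17 EGF-family ligands and receptors, 13 of which passed the filter. That is 5.88% each way, against 7.65% lower and 10.3% higher among all tested genes. AREG, an EGF receptor ligand of colon cells, was at 425, 451, 499.9 and 499.7 FPKM in the controls and 71.5, 71.1, 186 and 174 in the knockdowns. It was abundant in all controls and lowest with shRNA 1 (change −2.03, SE 0.06, limma adjusted p = 2.9e-05). The receptor gene EGFR went the other way, with 7.56, 6.27, 9.11 and 10.8 FPKM in the controls and 15.9, 17.05, 21.6 and 28.7 in the knockdowns (change 1.196, SE 0.11, limma adjusted p = 7.3e-04). Of 29 immediate-early and ERK feedback genes 28 passed, 4 fell and 4 rose with separation. That is 13.8% each way, against 7.65% and 10.3% of all tested genes. ATF3 was at 14.4, 13.9, 18.1 and 16.4 FPKM in the controls and 5.63, 6.1997, 3.75 and 2.89 in the knockdowns (change −1.61, SE 0.09, limma adjusted p = 1.1e-04), and IER3 at 328 to 347 and 143 to 217 FPKM (−0.91, SE 0.08, limma adjusted p = 4.7e-04), with over 20% of its exon bases in another gene. EGR1 was at 46.3, 44.2, 45.8 and 49.9 FPKM in the controls and 16.4, 13.8, 36.1 and 36.1 in the knockdowns, a change of −0.96 (SE 0.07, limma adjusted p = 3.6e-04) that was larger with shRNA 1 and was lost with 2 groups (adjusted p = 0.0681 by limma). SPRY2, an inhibitor of ERK signalling, rose, with 1.47 to 2.01 FPKM in the controls and 2.43 to 5.01 in the knockdowns (0.76, SE 0.10, limma adjusted p = 0.00243).

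Of 28 inflammatory and AU-rich mRNAs 15 passed the filter and 1 was separated, higher (3.57%, against 10.3% of all tested genes). It was PLAUR, the urokinase receptor (11.8 to 14.2 and 14.4 to 17.9 FPKM, 0.31, SE 0.08, limma adjusted p = 0.0254). This call was lost with 2 groups (adjusted p = 0.0770 by limma) and in 5 of 8 fits without 1 library. TNFAIP3 was at 0.6896 to 0.805 and 0.805 to 1.398 without passing (0.27, SE 0.13, limma adjusted p = 0.166).

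Of 21 BMP, TGF-beta and ID genes 14 passed the filter, with a median of −0.40. With separation 6 fell (28.6%, against 7.65% of all tested genes) and 2 rose (9.52%, near the 10.3% of all tested genes). BMP4, a secreted ligand, was at 101, 98.1, 103 and 92.2 FPKM in the controls and 57.1, 52.7, 27.2 and 25.5 in the knockdowns (change −1.35, SE 0.07, limma adjusted p = 9.7e-05). The feedback inhibitor SMAD7 was at 8.91, 7.87, 8.42 and 6.17 FPKM in the controls and 1.58, 1.61, 2.83 and 2.31 in the knockdowns (change −1.53, SE 0.11, limma adjusted p = 3.0e-04), and ID2, a target of BMP signals that blocks basic helix-loop-helix factors, at 90.5, 98.8, 79.9 and 72.5 FPKM in the controls and 34.7, 32.03, 43.4 and 37.4 in the knockdowns (change −1.19, SE 0.08, limma adjusted p = 2.4e-04). TGFB1, the ligand TGF-beta 1, rose, with 11.3 to 14.9 FPKM in the controls and 19.5 to 26.7 in the knockdowns (0.73, SE 0.09, limma adjusted p = 0.00164). Of 25 Wnt targets and inhibitors 15 passed. With separation DKK1 fell (4%, against 7.65% of all tested genes) and 2 genes rose (8%, against 10.3%). The 2 that rose were EPHB2 (0.888 to 1.33 and 2.71 to 3.303 FPKM, 0.95, SE 0.10, limma adjusted p = 9.2e-04) and the factor TCF7 (2.62 to 3.48 and 3.85 to 8.54, 0.78, SE 0.07, limma adjusted p = 4.8e-04). The TCF7 call was lost with 2 groups (adjusted p = 0.0622 by limma). NKD1, at 0.886 to 1.12 and 0.718 to 0.859, did not pass (−0.19, SE 0.13, limma adjusted p = 0.322).

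Genes of the ATF4 response serve amino acid supply. Of 30 listed 27 passed the filter, and the median was −0.39. With separation 10 fell (33.3%, against 7.65% of all tested genes) and 0 rose (against 10.3%). PCK2, the mitochondrial PEP carboxykinase, was at 7.04, 6.06, 10.97 and 12.3 FPKM in the controls and 4.3997, 3.65, 3.71 and 3.203 in the knockdowns (change −1.05, SE 0.09, limma adjusted p = 5.1e-04). The controls at 0 mM were the highest, and the knockdowns lay under the 20 mM controls as well. SLC3A2, the heavy chain of amino acid exchangers, was at 81.8, 83.8, 90.4 and 79.6 FPKM in the controls and 64.4, 56.2, 53.2 and 44.7 in the knockdowns (change −0.62, SE 0.09, limma adjusted p = 0.00321). The neutral amino acid transporter SLC1A4 (−0.70) and the folate enzyme MTHFD2 (−0.57) fell too. For MTHFD2, 7 annotated copies could share reads, and over 20% of its exon bases overlap another gene. With the 20 mM controls alone, 9 members were separated and lower and 3 higher, where 1145 and 1425 of all 16239 tested genes were. With the 0 mM controls alone 14 were lower and 0 higher, where 1212 and 1672 of all tested genes were.

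Of 26 NRF2 and glutathione genes 21 passed, 5 fell (19.2%) and 2 rose (7.69%) with separation, against 7.65% and 10.3% of all tested genes. HMOX1, heme oxygenase 1, was at 11.8, 12.6, 11.5 and 13.9 FPKM in the controls and 7.53, 6.58, 3.86 and 2.66 in the knockdowns (change −1.20, SE 0.11, limma adjusted p = 7.1e-04). The quinone reductase NQO1 was at 45.4, 49.4, 42.97 and 44.6 FPKM in the controls and 20.4, 20.5, 34.6 and 31.9 in the knockdowns (change −0.78, SE 0.06, limma adjusted p = 4.1e-04), and the thioredoxin reductase TXNRD1 at 73.5 to 89.1 and 49.2 to 55.6 FPKM (−0.62, SE 0.07, limma adjusted p = 0.00177), while PGD of the pentose phosphate pathway fell by 0.47. In the heat shock list of 22, 21 passed the filter. Separated and lower were 9.09%, near the 7.65% of all tested genes, and separated and higher 4.55%, below their 10.3%. HSPA1A (3.42 to 4.21 and 1.68 to 1.99 FPKM, −0.76, SE 0.09, limma adjusted p = 0.00183) and HSPA1B (−0.54), near-identical HSP70 genes that can share reads, fell. Over 20% of the exon bases of HSPA1B overlap another gene. HSPA4L rose (0.59, lost with 2 groups, adjusted p = 0.0891 by limma).

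Of 27 p53 targets 25 passed the filter, 4 rose (14.8%) and 1 fell (3.7%) with separation, and the median was 0.04. Among all tested genes the shares were 10.3% and 7.65%. Besides BTG2, TP53INP1 was at 3.697, 3.13, 3.27 and 4.27 FPKM in the controls and 17.6, 19.6, 7.93 and 10.2 in the knockdowns (change 1.61, SE 0.11, limma adjusted p = 2.7e-04), with the larger rise under shRNA 1. The death receptor gene FAS was at 2.53 to 3.598 and 4.01 to 9.39 FPKM (0.85, SE 0.13, limma adjusted p = 0.00433), and RRM2B at 12.7 to 14.6 and 16.2 to 21.3 (0.42, SE 0.10, limma adjusted p = 0.0191), a call lost in 4 of 8 fits without 1 library.

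Interferon-stimulated and RNA-sensing genes were listed because hairpin RNA can set them off. The controls carry an shRNA too, so the comparison cannot show whether hairpins did so here. Of 31, 21 passed the filter, 5 fell (16.1%) and 1 rose (3.23%) with separation, against 7.65% and 10.3% of all tested genes. IFI6 was at 21.4, 19.03, 21.2 and 16.5 FPKM in the controls and 6.26, 4.31, 6.96 and 2.37 in the knockdowns (change −1.85, SE 0.27, limma adjusted p = 0.00346), IRF7 at 9.104 to 10.7 and 3.03 to 6.59 FPKM (−0.99, SE 0.08, limma adjusted p = 4.3e-04), and IFIT1 at 1.76 to 2.33 and 0.687 to 0.964 (−0.67, SE 0.12, limma adjusted p = 0.00694). IFIH1, which encodes the RNA sensor MDA5, rose, with 1.05 to 2.001 FPKM in the controls and 2.79 to 4.53 in the knockdowns (0.89, SE 0.09, limma adjusted p = 9.6e-04). Of 16 antigen presentation genes 13 passed, 3 rose (18.8%, against 10.3% of all tested genes) and 0 fell with separation. B2M, the light chain of MHC class I, was at 25.2, 30.3, 26.4 and 24.9 FPKM in the controls and 52.4, 46.98, 39.1 and 35.3 in the knockdowns (change 0.67, SE 0.08, limma adjusted p = 0.00199), ERAP1, which trims peptides, at 1.08 to 1.27 and 2.72 to 3.42 (0.90, SE 0.10, limma adjusted p = 0.00151), and TAP2 at 3.04 to 3.86 and 4.71 to 6.31 (0.57, SE 0.07, limma adjusted p = 0.001496), with over 20% of its exon bases in another gene. NLRC5 did not pass (0.40, adjusted p = 0.0587 by limma). Of 15 genes of the RNA interference machinery, which process hairpins, all passed the filter. With separation 2 fell (TSN −0.77, DROSHA −0.26) and 2 rose (TSNAX 0.42, TNRC6C 0.44). That is 13.3% each way, against 7.65% and 10.3% of all tested genes. The DROSHA call was lost with 2 groups and in 6 of 8 fits without 1 library, and that of TNRC6C in 1.

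Lysosome and autophagy genes numbered 27, all past the filter. With separation 4 rose (14.8%, against 10.3% of all tested genes) and 0 fell. Limma alone called 5 higher and 2 lower, where it called 14.8% and 12.7% of all tested genes. CTSB, the protease cathepsin B, was at 26.2, 27.7, 24.6 and 24.3 FPKM in the controls and 58.97, 53.04, 54.6 and 45.9 in the knockdowns (change 1.02, SE 0.08, limma adjusted p = 3.5e-04). The proton pump subunit ATP6V1A was at 7.703, 6.93, 5.66 and 7.15 FPKM in the controls and 21.98, 23.5, 11.9 and 15.4 in the knockdowns (change 1.25, SE 0.11, limma adjusted p = 5.0e-04), and ATP6V0D1 rose by 0.68. Of 10 nucleosome-binding and HMG genes 3 rose (30%, against 10.3% of all tested genes) and 2 fell (20%, against 7.65%) with separation. With 2 groups 2 rose and 0 fell, where 1098 and 811 of all 16239 tested genes did. HMGN2 was at 138, 147, 131 and 129.6 FPKM in the controls and 96.9, 85.8, 11.4 and 10.8 in the knockdowns. The shRNA 2 libraries were far lower than those of shRNA 1 (shRNA 2 minus shRNA 1 −2.93, limma adjusted p = 1.7e-04), and the fall over both (−2.04) was lost with 2 groups (adjusted p = 0.0892 by limma). HMGB3 (0.52, likewise lost, adjusted p = 0.0547 by limma) and HMGN5 (0.79) rose. HMGN2 and HMGB3 have 36 and 29 annotated copies that could share reads.

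Of 76 cytosolic ribosomal protein genes, all tested, 7 fell with separation (9.21%, near the 7.65% of all tested genes) and 0 rose. Limma alone called 13 lower and 0 higher, against 12.7% and 14.8% of all tested genes. The median was −0.27 and 68 of 76 changes were below 0. RPL12 (−0.77) and RPS27A (−0.51) have 50 and 17 annotated copies, and the calls of RPL13 (−0.48) and RPL18 (−0.45) were each lost in 6 of 8 fits without 1 library. Of 35 nuclear genes of oxidative phosphorylation ATP5MC1 rose and SDHC fell (−0.31, lost with 2 groups, adjusted p = 0.0737 by limma, and in 4 of 8 fits without 1 library), while ATP5F1B did not pass (−0.21). The oxidative phosphorylation shares were 2.86% each way, against 10.3% higher and 7.65% lower among all tested genes. Of 13 mitochondrially encoded genes 0 were separated (0 by limma alone). Their share of reads was 6.83% to 8.72% in the controls, 11.1% and 9.62% with shRNA 1 and 7.06% and 9.10% with shRNA 2, and its part in other changes was not tested. Of 11 metallothioneins and zinc genes 6 passed the filter, and 1 rose with separation (9.09%, against 10.3% of all tested genes). This was MT1E, from 72.9, 81.4, 160.4 and 149.8 FPKM to 193, 164, 539.7 and 404 (1.39, SE 0.11, limma adjusted p = 4.5e-04, lost with 2 groups, adjusted p = 0.0612 by limma). Its 0 mM controls nearly reached the shRNA 1 libraries, and reads of metallothionein genes, which are much alike, may be split among them.

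**Figure D5:**
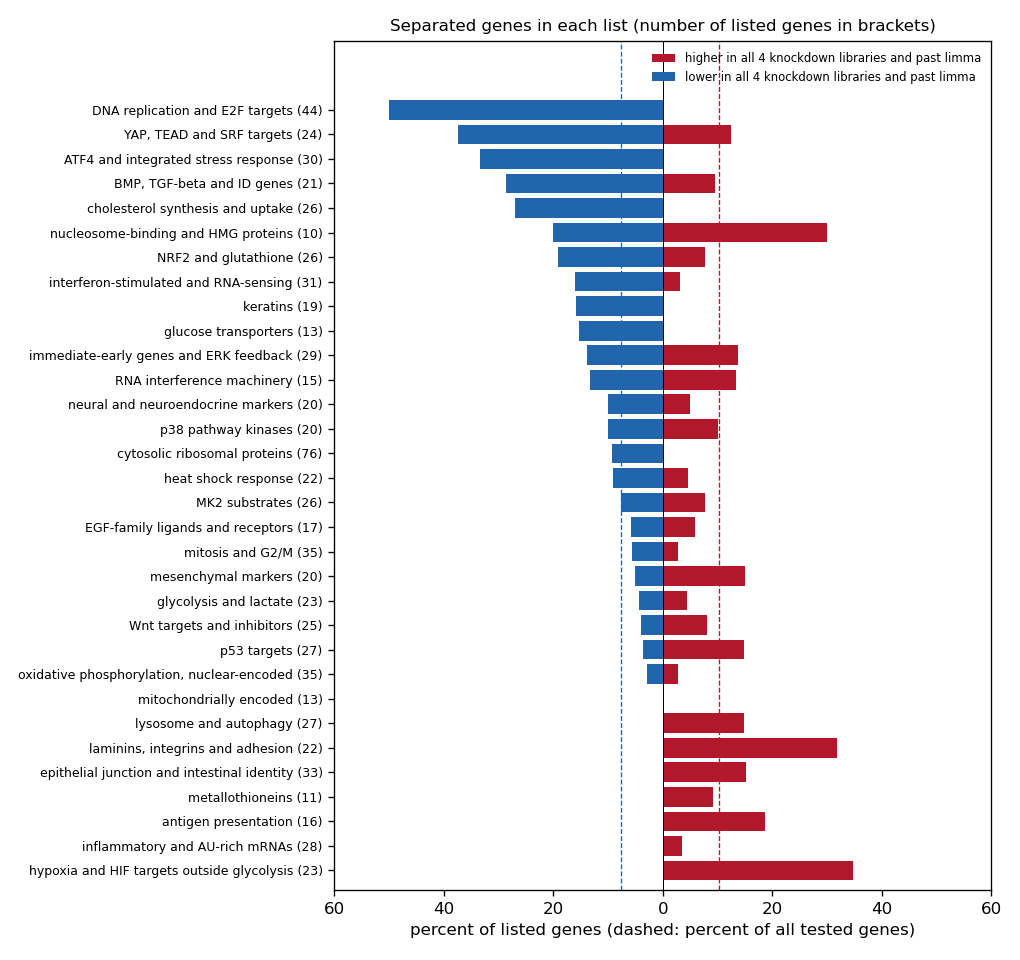
Percent of the listed genes that were separated and past limma, lower to the left in blue and higher to the right in red, for the 32 lists with at least 5 tested genes; dashed lines mark the share of all tested genes, 7.65% lower and 10.3% higher. DNA replication (22 of 44 genes), YAP, TEAD and SRF (37.5%) and ATF4 genes (33.3%) reach far left, and hypoxia (34.8%) and laminin and integrin genes (31.8%) far right.

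Non-coding genes made up 131 of the higher and 161 of the lower separated genes. KRT7-AS, an antisense gene inside KRT7, was at 1.73, 1.76, 3.45 and 3.45 FPKM in the controls and 0.722, 0.734, 0.156 and 0.0734 in the knockdowns (change −1.33, SE 0.11, limma adjusted p = 4.3e-04). It followed KRT7 in every group, and where the counting ignored strand its reads cannot be told from those of KRT7. AL157786.1, annotated as antisense, was at 0.945 to 1.23 and 3.17 to 3.63 FPKM (1.05, SE 0.09, limma adjusted p = 5.4e-04). The pseudogenes RPS12P26 (1.52) and AC141557.2 (−1.09) and the short small-nuclear pseudogenes RNU6ATAC18P (2.14) and RNU6-633P (−1.73) were the others by the widest gap. RNU6-633P had 0 reads in both shRNA 1 libraries and RNU6ATAC18P 0 in 1 control library of each glucose condition, so these values rest on few reads. The separated genes were more often protein-coding (92.2% of the higher and 87.0% of the lower against 70.5% of all tested), had a higher median of the mean FPKM (7.37 and 7.13 against 4.48) and a greater median exon length per gene (5149 and 4411.5 against 3681 bases). The scale log2(FPKM + 1) understates changes of genes with a low FPKM, and the part of the choice itself in these traits was not tested. By chromosome, the share that was separated and higher ran from 6.20% on chromosome 19 to 12.7% on chromosome 18, and the share lower from 5.06% on chromosome 4 to 10.3% on chromosome 12.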

How the data were processed

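Messenger RNA of HCT116 cells was sequenced in 8 libraries, 2 for each of 4 groups. The authors deposited FPKM per gene, in 1 table of all libraries. Tools named in the submitters' processing notes are featureCounts 1.5.0-p3, DESeq2 1.20.0 and HISAT2 2.0.5. The sources used here do not give the strand setting. Gene identifiers, names and positions of all 58735 genes matched GENCODE release 29 (GRCh38). Multiplying FPKM by gene length gave whole reads for all values within 0.001 of a step, which were used for depth and for limma voom only.

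Genes with at least 1 FPKM in at least 2 libraries (16239, of which 11446 protein-coding) were tested with limma 3.58.1 in R 4.3.3 on log2(FPKM + 1), with 4 group means, 4 residual degrees of freedom and an intensity trend. The knockdown contrast was the mean of both MAPKAPK2 shRNA groups minus the mean of both control groups. Adjusted p-values are Benjamini-Hochberg over all tested genes, 2-sided, with a threshold of 0.05. The fit was tested on simulated data. Gap is the distance between the nearest knockdown and control libraries.

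Named genes were MAPKAPK2, MAPKAPK3, MAPK14, HSPB1, ZFP36, the 15 protein-coding and 3 non-coding separated genes with the widest gap in each direction (means of at least 5 and 2 FPKM in the higher arm), the 5 widest with shRNA groups less than 0.2 apart, the genes at the limit of the choice, the genes most like MAPKAPK2, and up to 4 members of each of 33 lists (810 genes). The list members were those with the widest gap in either direction among members with no overlap. Their values thus describe how they were chosen. Genes outside this rule are named as such in the text. Members, lists and rule were chosen with earlier results of these data known, so counts by list are descriptions without a set test. No sample was left out, dropped or imputed in the main fit. Some genes of the lists are counted with their list and not reported here one by one.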

Additional observations from a re-analysis of the deposited data

Results flagged for a closer look

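Among the named genes, 54 had a level that differed between the shRNAs by limma (adjusted p under 0.05 over all tested genes); no cause was tested. Values are shRNA 2 minus shRNA 1 on log2(FPKM + 1), so that a positive value means more mRNA with shRNA 2. Among the genes of the pathway, MAPKAPK2 differed by −0.95, MAPK14 by 0.68, HSPB1 by 0.63 and ZFP36 by 0.45. In MAPK14 and HSPB1 the 2 shRNAs lay on different sides of the control mean.

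Among genes that rose, shRNA 2 gave more of PKIB (0.52), TBC1D4 (0.53), MAPK6 (0.62), HAS3 (1.45), ITPK1 (0.79), EPAS1 (0.82), PLOD2 (1.65), GAPDH (0.80), SPRY2 (0.69), TCF7 (0.90), HSPA4L (0.72), MT1E (1.39), EHF (0.86), ZEB1 (0.92), ITGB4 (0.46), LAMC1 (1.38), ITGA2 (1.83), ITGA5 (0.93) and EGFR (0.57), that is, it lay farther from the controls. It gave less of ATP5MC1 (−0.56), TP53INP1 (−0.97), FAS (−0.77), B2M (−0.41), ESRP1 (−0.52), COL6A1 (−0.47), ATP6V1A (−0.71) and HMGB3 (−0.51), for which shRNA 1 lay farther away.

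Among genes that fell, shRNA 2 left more of SLC2A3 (1.09), KRT80 (0.33), CYR61 (0.61), DKK1 (1.10), KRT81 (1.06), NR4A1 (0.41), UHRF1 (0.76), ACAT2 (1.09), IER3 (0.45), EGR1 (1.21), IRF7 (0.79), AREG (1.32) and NQO1 (0.68). It left less of KRT7 (−1.03), KRT7-AS (−0.63), ATF3 (−0.68), MTHFD2 (−0.45), HSPA1B (−0.41), BMP4 (−1.03), HMOX1 (−0.93), HMGN2 (−2.93), TSN (−0.57) and ARL14EPL (−0.40). HMGN2 had the greatest difference of the 54.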

How the results depend on the processing

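With 2 groups and 6 residual degrees of freedom, which count the differences between shRNAs and between glucose conditions as spread, limma called 1116 genes higher and 831 lower, and 1098 and 811 of these without overlap. With the 20 mM controls alone limma called 1362 lower, and 2425 lower genes showed no overlap; with the 0 mM controls alone 2333 did, and without the second 0 mM control and the second shRNA 2 library, an alternative chosen after the data were seen, 2310. Fewer libraries make no overlap more frequent by construction. Glucose called 6 genes without a filter, 28 with limma voom and 8 among protein-coding genes.

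Without 1 library each, limma called 1512 to 2522 genes higher and 1134 to 2403 lower; 2094 to 2415 higher and 1697 to 2297 lower genes showed no overlap; 1261 to 1879 higher and 864 to 1751 lower did both; 1335 to 3473 differed between the shRNAs, and 0 to 1 with glucose. Over 1.5-fold drops of the limma counts followed from leaving out the first 20 mM control (1512 higher, 1134 lower), the second (1581, 1184), the first shRNA 1 library (1529, 1229), the second shRNA 1 library (1225 lower) or the second 0 mM control (1364 lower). The shRNA difference fell to 1384 and 1335 without the first and second shRNA 1 library, and no overlap rose to 2297 lower without the first shRNA 2 library. Each such fit has fewer residual degrees of freedom, and the cause was not tested otherwise.

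Deviations of same-numbered libraries correlated at −0.0295, −0.00485, −0.0146, −0.0192, 0.179 and 0.0704 in the 6 pairs of groups. The highest, 0.179, was that of the 0 mM controls and shRNA 2. The second libraries of these groups also stood apart on the third principal component. Whether same-numbered libraries belong together was not tested otherwise. With the replicate block limma called 2534 higher and 2230 lower genes, 1673 and 1245 without overlap, of which 2845 were shared with the 2918, 3806 between the shRNAs and 0 with glucose. Of 1846 values of named genes under the alternatives, 0 reversed, 83 lost the call and 10 gained it; 106 of 133 calls held throughout. Most named genes were chosen by their gap, so how well their calls held says little about the separated genes in general. With 2 groups, 65.4% of the 2918 separated genes were kept. Scaling moved the median of all genes only between −0.01 and 0.01 and the share of calls that were higher between 50.6% and 55.3%. The median of the inflammatory list ran from −0.0025 to 0.0087 with scaling and that of the metallothionein list from −0.0199 to 0.0464. For the RNA interference list it ran from −0.0214 to 0.00135. These medians changed sign, but only by small amounts. With 2 libraries a group, the spread rests on 4 residual degrees of freedom, and genes near 1 FPKM rest on few reads.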
